A study of Mus musculus with 12 samples.

Results

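The genes described here are 42 ribosome biogenesis factors and Myc, 43 of the 14091 genes in the deposited table of kidney read counts. They were chosen by name, with no threshold on a measured value but with earlier results of these data known: Myc itself, 4 genes of RNA polymerase I transcription, 3 proteins of box C/D small nucleolar ribonucleoproteins (snoRNPs), 4 of box H/ACA snoRNPs, 5 abundant nucleolar proteins, 14 factors of the small ribosomal subunit and 12 of the large subunit. All 43 were in the table and all were tested. Kidneys came from wild-type (WT) C57BL/6 mice, 10 weeks old when feeding began and kept for 12 weeks on a normal diet (ND, 20% protein, 10% fat and 70% carbohydrate) or a diet high in fat and sucrose (HFD, with 29% fat, 12.6% protein and 46.2% carbohydrate). Mice then underwent 60 min of partial hepatic ischemia followed by reperfusion (hIRI), by a clamp on the supply of the left lateral and right median lobes, or a sham procedure, and tissue was taken at 6 h. Crossing diet with procedure gave 4 groups of 3 mice (ND + sham and HFD + sham, ND + hIRI and HFD + hIRI), with 1 library a mouse. The kidney itself was not clamped, and the diets differed in protein and carbohydrate as well as in fat, so the part of fat cannot be told apart from theirs.

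Ribosomes are assembled in the nucleolus. RNA polymerase I copies the ribosomal DNA into a long precursor, snoRNPs modify that RNA, and a large set of assembly factors folds, cuts and exports the small and large subunits. Myc is a transcription factor that raises the output of this whole line, partly by binding the hexamer CACGTG (an E-box) near the start sites of assembly factor genes, and its mRNA is short-lived and is known to rise early after injury to kidney tubules.

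Since Myc is known to bind that hexamer, the promoters of the factors were searched for it. RefSeq promoter windows of 300 bases (250 before the start site and 50 after it, GRCm38.p6) were matched for 36 of the 43 genes, in 39 windows. The windows of Myc, Fbl, Npm1, Rrp12, Gnl2, Rrs1 and Bop1 were not used here. CACGTG, which reads the same on both strands, was present in 9 of the 39 windows (23.1%), against 7.15% of all 32851 windows and 9.62% of the 13669 windows of genes in the deposited table. By gene, 5 of the 18 matched genes that passed the test in HFD + hIRI against HFD + sham held it, as did 4 of the 18 that did not. The 10 matches are shown because they are the letters Myc is known to recognise, each as 30 bases on the strand of the gene, with CACGTG in capitals and the position of its first base relative to the start site (+1).
Ltv1, chr10:13193092-13193121, minus strand, +29: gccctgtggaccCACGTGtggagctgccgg
Wdr43, chr17:71616220-71616249, plus strand, +18: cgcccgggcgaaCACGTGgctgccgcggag
Tsr1, chr11:74898092-74898121, plus strand, +25: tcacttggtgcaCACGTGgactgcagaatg
Mybbp1a, chr11:72441347-72441376, plus strand, +41: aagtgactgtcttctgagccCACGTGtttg
Rrn3, chr16:13780472-13780501, plus strand, -215: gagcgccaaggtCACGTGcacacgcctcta
Rrn3, chr16:13780639-13780668, plus strand, -48: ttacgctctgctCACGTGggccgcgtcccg
Imp4, chr1:34439696-34439725, plus strand, -121: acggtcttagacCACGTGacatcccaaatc
Nop2, chr6:125131811-125131840, plus strand, -60: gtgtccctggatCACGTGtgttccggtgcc
Utp20, chr10:88826765-88826794, minus strand, +38: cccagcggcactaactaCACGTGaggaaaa
Pes1, chr11:3963965-3963994, plus strand, +3: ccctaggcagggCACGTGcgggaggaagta
The first 5 genes shown are those that passed the test in HFD + hIRI. A match of letters is a description of the window and shows no binding in these kidneys.

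Libraries held 20874584 to 29451344 counts, of which the 43 genes took 0.18% to 0.256%, and no member had fewer than 133 counts in a library. Levels are given as CPM, the counts of a gene scaled to a common library size after TMM normalisation. The libraries did not fall cleanly by group. On the first principal component of all genes, which held 54.4% of the variance, HFD + hIRI replicates 1, 2 and 3 lay at 97.4, 44.9 and 19.4, and the 6 sham libraries between -37.9 and -18.5. Of the ND + hIRI libraries, replicate 1 lay among the shams at -26.0, and the other two at 15.7 and 22.5, on either side of HFD + hIRI replicate 3. In whole tissue, more transcript per cell and more cells of an expressing type cannot be told apart.

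In kidneys of HFD mice, hIRI was followed by higher levels of much of this set. Of the 43 genes, 22 passed edgeR's quasi-likelihood test (adjusted p under 0.05 over all genes) as higher in HFD + hIRI than in HFD + sham and 0 as lower, which is 51.2% of the set, against 11.4% of all genes tested called higher and 8.47% called lower. The 22 held Myc, the polymerase I initiation factor Rrn3, the box C/D snoRNP proteins Nop56 and Nop58 but not the third, fibrillarin, the pseudouridine synthase dyskerin (Dkc1), 4 of 5 nucleolar proteins, 9 of 14 small subunit factors and 4 of 12 large subunit factors. The median log2 fold change of the set was 0.51, and that of all genes -0.01. All 3 HFD + hIRI libraries lay above all 3 HFD + sham libraries for 31 genes (72.1%, against 23.1% of all genes) and below them for 0 (against 23.6%). Of the 43 fold changes 41 were above 0, and the 2 below 0, for Imp3 and Npm1, did not pass the test. The count fell where calls over all genes fell. It was 5 without HFD + sham replicate 1 (Ltv1, Rrp12, Wdr43, Bysl and Gnl3, with 1.1% of all genes called higher), 0 without replicate 2 (0.0071%) and 0 without replicate 3 (0.156%), and it was 14 without HFD + hIRI replicate 1 (4.05%). It was also 0 with the library number group, a lower against a higher run of library numbers, as a term (0.0852%). The median log2 fold change of the set was 0.48 in that fit. HFD + sham replicates 1 and 2 are in the lower run and all 3 HFD + hIRI libraries in the higher, so run and procedure are poorly separated. The count was 6 with only the 6 HFD libraries in the fit (3.1%), where the median was 0.50. Scaled by library totals alone it was 15, with 6.05% of all genes called higher and 15% lower, and by the upper quartile 17, with 7.47% and 11.5%. No member was called in each of the 12 fits with a library left out. The 22 fold changes stayed above 0 under every alternative run, the smallest being 0.24.

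Myc (chr15:61985341-61990361) stood at 4.56, 6.07 and 7.17 CPM in the ND + sham libraries and at 12.0, 7.89 and 6.82 CPM in the HFD + sham libraries, replicates 1 to 3. After hIRI it stood at 7.41, 10.5 and 14.4 CPM under ND and at 74.0, 29.4 and 12.7 CPM under HFD. Every hIRI library was above every sham library of its own diet, but the lowest HFD + hIRI library lay within the range of ND + hIRI, and replicate 1 stood far above the other two. Means were 8.91 ± 2.76 CPM in HFD + sham and 38.7 ± 31.7 CPM in HFD + hIRI (SD, n = 3), a 4.32-fold rise (log2 fold change 2.11, SE 0.53, adjusted p = 0.0258). The log2 fold change was 1.23 (adjusted p = 0.0738) without HFD + hIRI replicate 1, and the adjusted p was 0.0588, 0.0948 and 0.0877 without HFD + sham replicate 1, 2 or 3. Over the alternatives run the adjusted p for Myc was 0.000422 to 0.113. Under ND the log2 fold change was 0.86 (SE 0.53, adjusted p = 0.469), and the difference between the diets in the response to hIRI, 1.26 (SE 0.73, adjusted p = 0.539), did not pass the test.

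**Figure D1:**
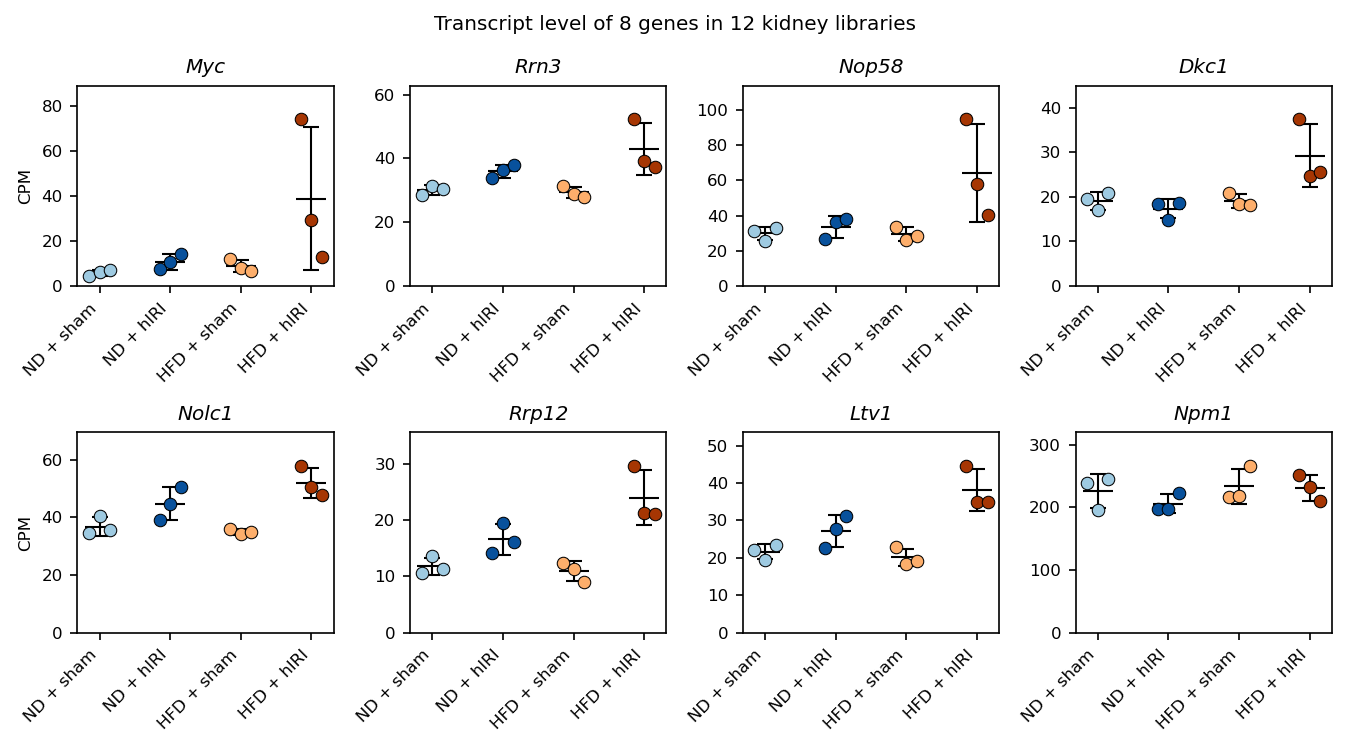
Level in CPM (y axis, from 0) of 8 genes in the 12 kidney libraries, grouped on the x axis by diet and procedure. Points are libraries in the order of their replicate numbers, and bars are the mean and SD of 3. For Myc the HFD + hIRI libraries spread from 12.7 to 74.0 CPM, for Ltv1 all 3 lie above every other library, and for Npm1 the 4 groups overlap.

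Of the RNA polymerase I genes of the set, Rrn3, the initiation factor TIF-IA that brings the polymerase to ribosomal DNA, rose. The subunits Polr1a, Polr1b and Polr1c did not pass the test. Rrn3 stood at 31.3, 28.8 and 27.9 CPM in HFD + sham and at 52.3, 39.2 and 37.2 CPM in HFD + hIRI, with no overlap (log2 fold change 0.55, SE 0.13, adjusted p = 0.0208). In ND + sham it stood at 28.4, 31.5 and 30.4 CPM and in ND + hIRI at 33.8, 36.5 and 37.8 CPM, again with no overlap, but the test did not call it (log2 fold change 0.26, adjusted p = 0.372). Polr1b, the second largest subunit, was at 22.4, 21.0 and 18.7 CPM in HFD + sham and 28.4, 23.5 and 23.2 CPM in HFD + hIRI (log2 fold change 0.27, SE 0.12, adjusted p = 0.129). Its sham and hIRI libraries did not overlap under HFD, and did under ND.
Polr1a, the largest subunit, had the smallest p of these genes under ND. It was at 30.5, 34.2 and 32.0 CPM in ND + sham and 38.2, 37.3 and 38.2 CPM in ND + hIRI (log2 fold change 0.23, SE 0.09, adjusted p = 0.262). Under HFD its log2 fold change was 0.04 (SE 0.09), with overlapping libraries. Polr1c, a subunit shared with RNA polymerase III and per kilobase the most abundant of the 4, was at 33.2, 33.8 and 36.8 CPM in HFD + sham and 37.7, 32.6 and 34.8 CPM in HFD + hIRI. Its libraries overlapped in all of the 4 comparisons of groups.

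All 3 box C/D proteins, which carry out the methylation of ribosomal RNA, were at higher levels in every HFD + hIRI library than in any HFD + sham library. Nop58 was at 33.6, 26.3 and 28.7 CPM in HFD + sham and 94.6, 57.9 and 40.1 CPM in HFD + hIRI (log2 fold change 1.12, SE 0.27, adjusted p = 0.0230). Its partner Nop56 was at 26.4, 20.0 and 23.8 CPM against 53.2, 41.5 and 32.7 CPM (log2 fold change 0.86, SE 0.21, adjusted p = 0.0229). Both rose, and in both the order of the 3 HFD + hIRI libraries was that of Myc. Under ND, Nop56 stood at 21.8, 20.8 and 19.3 CPM after sham and 21.2, 29.2 and 35.2 CPM after hIRI, where replicate 1 alone lay within the sham range (log2 fold change 0.47, adjusted p = 0.33). Fibrillarin (Fbl), the methyltransferase, was at 39.0, 34.2 and 31.9 CPM in HFD + sham and 55.1, 40.3 and 41.9 CPM in HFD + hIRI, just outside the threshold (log2 fold change 0.38, SE 0.13, adjusted p = 0.053).

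Of the box H/ACA proteins, which carry out pseudouridylation, Dkc1 rose and the other 3 did not pass the test. Dkc1 was at 20.9, 18.3 and 18.1 CPM in HFD + sham and 37.4, 24.7 and 25.6 CPM in HFD + hIRI (log2 fold change 0.61, SE 0.17, adjusted p = 0.0314). After hIRI under ND it was at 18.5, 14.8 and 18.6 CPM, against 19.4, 17.0 and 20.9 CPM in ND + sham, so that the libraries overlapped and the mean was lower (log2 fold change -0.14, SE 0.17). Gar1 was at 13.0, 11.3 and 9.67 CPM in HFD + sham and 37.1, 13.7 and 12.4 CPM in HFD + hIRI. The large log2 fold change of Gar1, 0.89 (SE 0.34, adjusted p = 0.0803), came with 1 library far above the other two. Nop10, per kilobase the most abundant of the 4, was at 66.5, 58.6 and 60.4 CPM against 76.7, 65.1 and 68.5 CPM, with overlap (log2 fold change 0.18, SE 0.10).

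Of the 5 nucleolar proteins, Ncl (nucleolin), Nolc1, Ddx21 and Mybbp1a rose and Npm1 (nucleophosmin) did not pass the test. Nolc1, a chaperone of snoRNPs, was at 36.0, 34.1 and 34.8 CPM in HFD + sham and 57.8, 50.5 and 47.7 CPM in HFD + hIRI (log2 fold change 0.57, SE 0.11, adjusted p = 0.0169). Mybbp1a, a nucleolar partner of RNA polymerase I, was at 71.8, 72.5 and 61.3 CPM against 129.8, 92.7 and 92.7 CPM (log2 fold change 0.62, SE 0.13, adjusted p = 0.0194). Its ND + hIRI libraries, at 73.2, 85.4 and 75.7 CPM, also lay above ND + sham at 58.7, 64.2 and 62.2 CPM (log2 fold change 0.34, adjusted p = 0.289). For the RNA helicase Ddx21 the log2 fold change under HFD was 0.94 (SE 0.21, adjusted p = 0.0205), and for nucleolin 0.43 (SE 0.12, adjusted p = 0.0304). Npm1 was per kilobase the most abundant of the 43 genes, at a mean of 130.4 CPM per kilobase over the 12 libraries, and was at 216, 217 and 266 CPM in HFD + sham and 251, 233 and 209.5 CPM in HFD + hIRI. The 4 groups overlapped and the log2 fold change was -0.01 (SE 0.12). Npm1 has processed pseudogenes, so its count is less certain than the others.

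The small subunit factors held the smallest p values of the set. Ltv1, a factor of the late small subunit precursor, was at 22.8, 18.3 and 19.3 CPM in HFD + sham and 44.6, 35.0 and 34.9 CPM in HFD + hIRI (log2 fold change 0.92, SE 0.15, adjusted p = 0.0114). Rrp12, a nuclear export factor, was at 12.4, 11.4 and 8.95 CPM against 29.7, 21.3 and 21.2 CPM (log2 fold change 1.14, SE 0.19, adjusted p = 0.0124). In both genes each HFD + hIRI library was above each of the 9 other libraries. Under ND, Ltv1 stood at 22.1, 19.5 and 23.4 CPM after sham and 22.7, 27.8 and 31.1 CPM after hIRI, with 1 library inside the sham range. Rrp12 stood at 10.6, 13.6 and 11.2 CPM after sham and 14.1, 19.6 and 16.2 CPM after hIRI, with no overlap (log2 fold change 0.50, SE 0.19, adjusted p = 0.273).
Of the SSU processome, the large particle that folds the precursor, Wdr43 (log2 fold change 0.67), Heatr1 (1.07), Noc4l (0.76), Utp15 (0.52) and Nop14 (0.41) rose, with adjusted p between 0.0141 and 0.0395. The late factors Bysl (0.78) and Tsr1 (0.93) rose as well, at adjusted p 0.0178 and 0.0193. Rrp9, Imp4, Nob1, Utp20 and Imp3 did not pass the test, with log2 fold changes of 0.51, 0.16, 0.26, 0.05 and -0.16. Imp3, per kilobase the most abundant of these 14, was at 33.5, 34.3 and 34.7 CPM in HFD + sham and 28.6, 29.4 and 34.0 CPM in HFD + hIRI, with overlap. Utp20 was at 134, 107 and 93.5 CPM in HFD + sham and 75.9, 121 and 150.2 CPM in HFD + hIRI, and its level was lowest in the library where Myc was highest.

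Of the 12 large subunit factors, the nucleolar GTPases Gnl3 (nucleostemin) and Gnl2, as well as Nip7 and Rrs1, rose. Rrs1 loads the 5S ribonucleoprotein. Gnl3 was at 30.1, 23.1 and 24.7 CPM in HFD + sham and 59.2, 48.9 and 37.6 CPM in HFD + hIRI (log2 fold change 0.90, SE 0.18, adjusted p = 0.0177). Under ND it was at 25.6, 23.7 and 22.5 CPM after sham and 25.4, 35.5 and 36.7 CPM after hIRI, and replicate 1 again lay within the sham range (log2 fold change 0.44, adjusted p = 0.315). Gnl2 was at 36.3, 31.5 and 33.7 CPM against 90.7, 47.1 and 40.7 CPM under HFD (log2 fold change 0.81, SE 0.24, adjusted p = 0.0386). Nip7 and Rrs1 had log2 fold changes of 0.58 (adjusted p = 0.0422) and 0.57 (adjusted p = 0.0452). Gtpbp4, per kilobase the most abundant of the 12, was at 54.7, 46.7 and 51.2 CPM in HFD + sham and 94.4, 59.7 and 52.8 CPM in HFD + hIRI, with overlap (log2 fold change 0.44, SE 0.19, adjusted p = 0.104). The 3 subunits of the PeBoW complex, Pes1, Bop1 and Wdr12, had log2 fold changes of 0.22, 0.32 and 0.16 and did not pass the test.

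**Figure D2:**
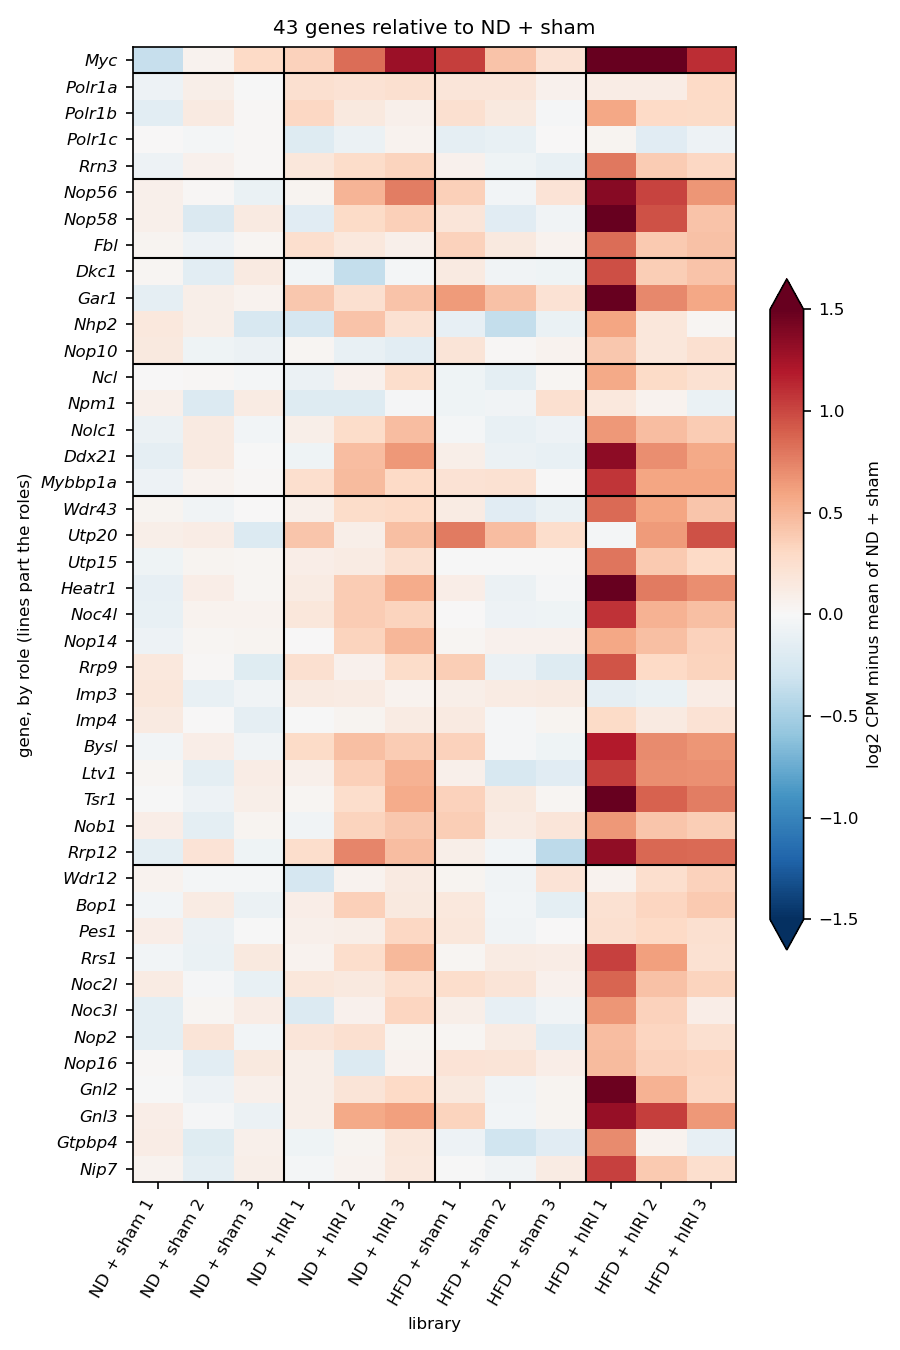
Level of each of the 43 genes (rows, by role) in each of the 12 libraries (columns), as log2 CPM minus the mean of ND + sham. Red is higher and blue lower, and the colour scale ends at 1.5 on either side. The HFD + hIRI columns are red for most genes and deepest in replicate 1, while Polr1c, Npm1 and Imp3 stay near white.

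Under ND, no member passed the test after hIRI, and most fold changes were above 0. The count of members called was 0, as it was over all genes (0% called), so the test had no call to compare with. Of the 43 genes, 37 had fold changes above 0, with a median of 0.20 against 0.00 over all genes. At an unadjusted p under 0.05, 9 genes were higher and 0 lower (20.9%, against 8.23% of all genes higher and 6.17% lower). All 3 ND + hIRI libraries lay above all 3 ND + sham libraries for 14 genes (32.6%, against 10.9% of all genes) and below for 0 (against 10.7%). Limma voom called 0 members and 0% of all genes. DESeq2 and the likelihood ratio test also called 0 members, though they called 2.11% and 1.72% of all genes higher and 1.04% and 0.688% lower. Without ND + hIRI replicate 1 alone 0 members were called, against 2.41% of all genes higher. With ND + hIRI replicate 1, which lay among the shams, and HFD + hIRI replicate 1 both left out, 12 members were called, among them Ddx21, Nop14, Heatr1, Nop56, Gnl3, Mybbp1a, Nolc1, Ltv1, Rrp12 and Rrn3, against 9.19% of all genes called higher and 7.29% lower. That replicate was chosen by how its values looked, so the count of 12 is a description.

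With both diets averaged, 22 members were higher after hIRI and 0 lower, against 12.9% of all genes higher and 10.9% lower. Rrp12 (log2 fold change 0.82, SE 0.13, adjusted p = 0.00695) and Ltv1 (0.62, SE 0.11, adjusted p = 0.00711) had the smallest p. In this comparison 14 of the 22 were called in each of the 12 fits with a library left out. The count was 14 without ND + sham replicate 1, ND + hIRI replicate 3, HFD + sham replicate 2 or HFD + sham replicate 3. This average includes Myc (1.48, SE 0.37, adjusted p = 0.0208) and uses the same HFD + hIRI libraries as above.

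Between the diets after hIRI, levels leaned to HFD without passing the test used here. The paper's own edgeR list for this comparison, at an FDR under 0.05, includes Dkc1, Tsr1, Myc, Nop58 and Heatr1 as higher in HFD + hIRI. HFD + hIRI was called higher than ND + hIRI for 0 of the 43 genes and lower for 0, against 0.532% and 0.816% of all genes. The median log2 fold change was 0.36 (0.00 over all genes) and 41 of 43 were above 0. For 21 genes every HFD + hIRI library was above every ND + hIRI library (48.8%, against 12.2% of all genes), and 23 were higher at an unadjusted p under 0.05 (53.5%, against 14.9%). Dkc1 had the smallest p of the set (log2 fold change 0.75, SE 0.17, adjusted p = 0.0551), followed by Tsr1 (0.82, SE 0.20, adjusted p = 0.0676), and Myc came to 1.85 (SE 0.52, adjusted p = 0.0822). DESeq2 called 15 members in this comparison (with 6.65% of all genes called higher), the likelihood ratio test 5 (Dkc1, Tsr1, Myc, Nop58 and Heatr1, with 3.82%), and the main test 21 without HFD + hIRI replicate 3 (with 10.5%). The comparison shares its HFD + hIRI libraries with the one against HFD + sham. The difference between the diets in the response to hIRI was above 0 for 40 genes (median 0.31), with 0 called against 0.0071% of all genes in each direction. At an unadjusted p under 0.05, 7 were larger under HFD (Dkc1, Ltv1, Wdr43, Nop58, Rrp12, Heatr1 and Tsr1, 16.3% against 5.79% of all genes), and 0 were smaller (against 4.35%). A response that differs between the diets was therefore not shown for any of these genes.

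Between the sham groups, which differ by diet alone, no member passed the test. HFD + sham against ND + sham gave 0 calls higher and 0 lower (against 0% and 0.0142% of all genes), a median log2 fold change of 0.05 and 27 fold changes above 0 and 16 below. DESeq2 (0.454% of all genes higher and 0.483% lower) and limma voom (0% of all genes) called 0 as well. Utp20 was the only member higher at an unadjusted p under 0.05 (against 4.58% of all genes) and 0 were lower (against 4.22%). It stood at 82.7, 84.1 and 67.1 CPM in ND + sham and 134, 107 and 93.5 CPM in HFD + sham (log2 fold change 0.52, SE 0.22, adjusted p = 0.555). For 4 genes, Utp20, Fbl, Gar1 and Nob1, the HFD + sham libraries lay above the ND + sham libraries (9.3%, against 12.7% of all genes), a share below that of all genes.

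**Figure D3:**
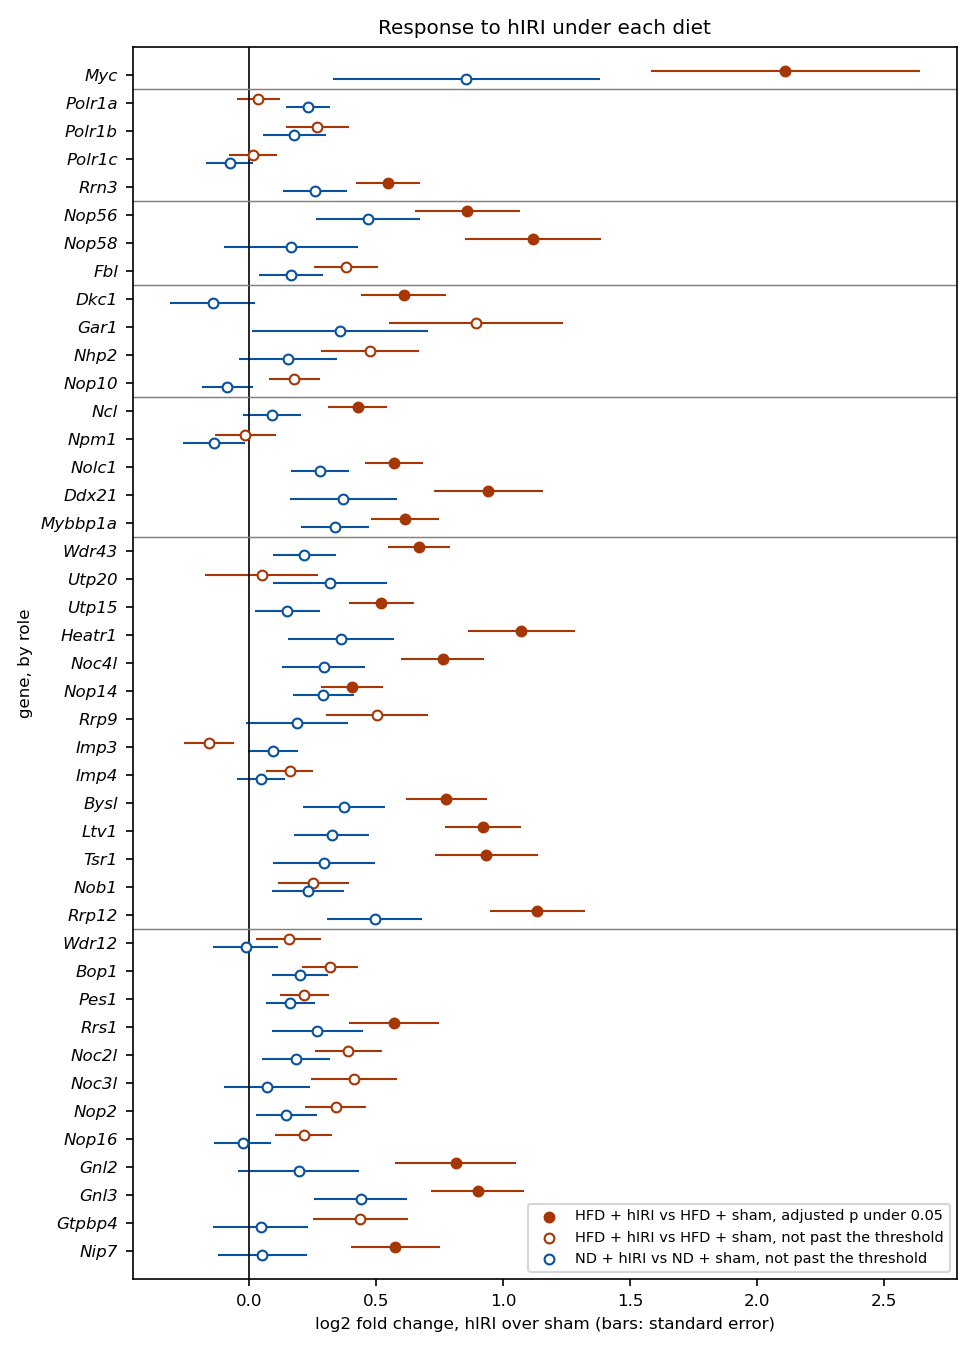
Log2 fold change of hIRI over sham (x axis, bars are the standard error) for each of the 43 genes (y axis, by role), under HFD and under ND. Filled points passed an adjusted p under 0.05: 22 under HFD and 0 under ND. Under HFD all points except Imp3 and Npm1 lie above 0.

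Within the HFD + hIRI group most factors shared the order of the libraries. Relative to the mean of ND + sham, the median of the 42 factors (Myc left out) was 0.80, 0.39 and 0.34 on the log2 scale in replicates 1, 2 and 3, and Myc was 3.65, 2.32 and 1.11. Replicate 1 held the highest level of the group for 36 of the 42 factors and replicate 3 the lowest for 29. In ND + hIRI the median was 0.08, 0.22 and 0.30, with Myc at 0.34, 0.84 and 1.29, and replicate 1 held the lowest level for 30 factors and replicate 3 the highest for 30. In HFD + sham the median was 0.13, -0.05 and 0.01, and replicate 1, where Myc was highest of the shams at 1.03, held the highest level for 30 factors. So in both hIRI groups and in HFD + sham the library with most Myc was that with the highest level of most factors. In ND + sham it was not: Myc was highest in replicate 3, which held the highest level for 12 of the 42 factors, against 14 and 16 in replicates 1 and 2. The points share TMM scaling, and HFD + hIRI replicate 1 also had the lowest TMM factor (0.868), the most genes at 0 counts (31) and the farthest position on the first principal component. Within its group it held the highest summed markers of adrenal cortex (70.2 CPM), leukocytes (245 CPM) and proliferation (132 CPM) and the lowest of kidney tubule (17995 CPM). The part of these in the order of the libraries was not tested. Without it the median log2 fold change of the 43 genes in HFD + hIRI against HFD + sham was 0.31.

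**Figure D4:**
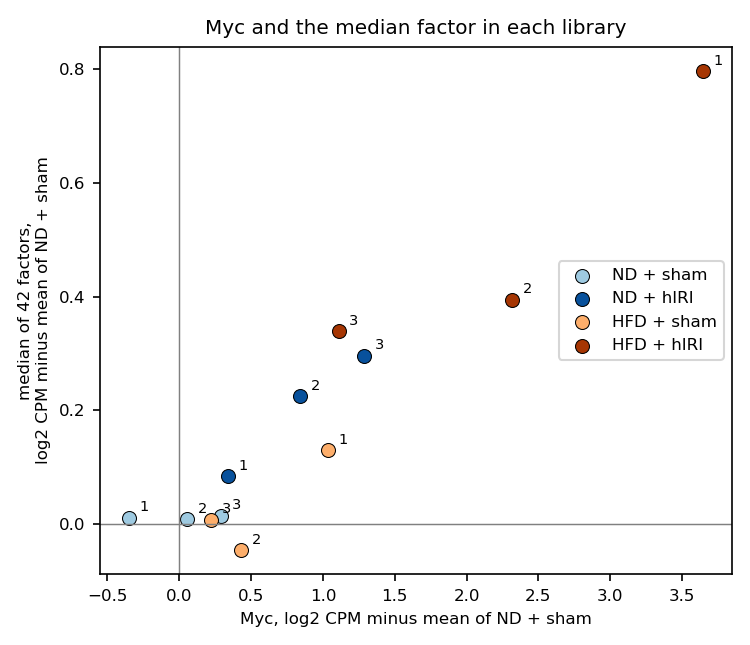
Median level of the 42 factors (y axis) against the level of Myc (x axis) in each of the 12 libraries, both as log2 CPM minus the mean of ND + sham. Numbers are replicate numbers. HFD + hIRI replicate 1 is highest on both axes, at 0.80 and 3.65, and 5 of the 6 sham libraries lie within 0.05 of 0 on the y axis.

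Other genes of the same pathway, which were not among the 43, were called most often among the subunit factors. In HFD + hIRI against HFD + sham, 22 of 45 other large subunit factors and 18 of 44 other small subunit factors were called higher (48.9% and 40.9%, against 11.4% of all genes) and 0 lower. Rrp15, a large subunit factor, was at 7.46, 7.58 and 9.12 CPM in HFD + sham, from lowest to highest, and 13.5, 14.2 and 18.4 CPM in HFD + hIRI (log2 fold change 0.93, SE 0.16, adjusted p = 0.0127). Brix1, another, had a log2 fold change of 0.75 (adjusted p = 0.0124), and the small subunit factors Rcl1 and Pwp2 0.98 (adjusted p = 0.0173) and 0.75 (adjusted p = 0.0176). Of other RNA polymerase I factors 2 of 11 rose (18.2%, not far from the share of all genes), the subunit Twistnb (0.46, adjusted p = 0.0310) and Taf1d (0.71, adjusted p = 0.0320). Of the RNA exosome, which trims the precursor, 3 of 14 rose (21.4%), with Mphosph6 (0.90, adjusted p = 0.0177) and Dis3 (0.70, adjusted p = 0.0179) leading. Of 10 snoRNP assembly factors 0 passed, and Shq1 came nearest (0.75, adjusted p = 0.0527). The 5 lists together gave 45 of 124 higher (36.3%, against 11.4% of all genes) and 0 lower, with a median of 0.32. Scaled by library totals alone they gave 20 of 124 higher and 4 lower, against 6.05% and 15% of all genes. Without the ND libraries in the fit they gave 5 of 124 higher and 0 lower. That share was not far from the 3.1% of all genes called higher in the same fit.

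**Figure D5:**
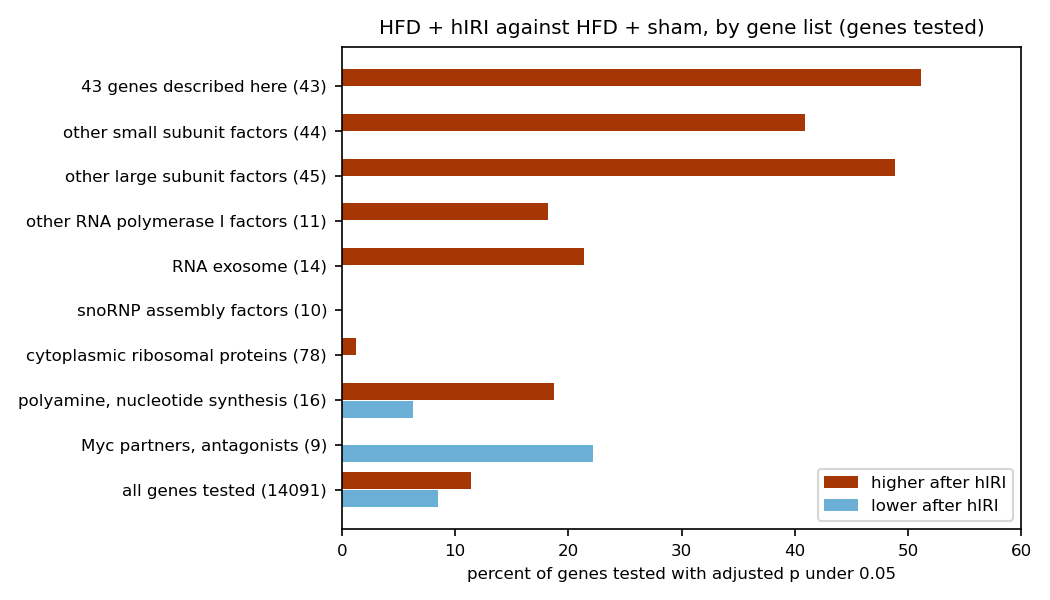
Percent of the genes tested in each list (x axis) called higher or lower at an adjusted p under 0.05 in HFD + hIRI against HFD + sham, with the number of genes tested in brackets. The 43 genes (51.2% higher) and the other subunit factors lie far above all genes (11.4%), and cytoplasmic ribosomal proteins (1.28%) below.

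Few transcripts of ribosomal proteins passed the test. Of 78 cytoplasmic ribosomal proteins 1 was called higher in HFD + hIRI than in HFD + sham, Rpl34 (log2 fold change 0.53, adjusted p = 0.0471). That call was lost in 11 of 12 fits with a library left out. Rpl34 was at a low level, 2.61 to 3.08 CPM in HFD + sham and 4.03 to 4.48 CPM in HFD + hIRI. The median of the 78 was 0.27, against 0.51 for the 43 genes, and 77 of 78 fold changes were above 0. At an unadjusted p under 0.05, 29 were higher (37.2%, against 21.4% of all genes) and 0 lower (against 18.4%). For 27 of the 78 (34.6%, against 23.1%) every HFD + hIRI library was above every HFD + sham library, and for 0 below (against 23.6%). Between the diets after hIRI, 8 of 78 were called higher in HFD + hIRI than in ND + hIRI (10.3%, against 0.532% of all genes). For 70 of the 78 (89.7%, against 12.2%) every HFD + hIRI library was above every ND + hIRI library, and the median was 0.47. Between the sham groups 0 were called, but HFD + sham was already above ND + sham without overlap for 43 of the 78 (55.1%, against 12.7%), with 77 fold changes above 0 and a median of 0.24. Scaled by library totals alone the 8 calls became 2 and the median 0.35. Ribosomal protein genes have many processed pseudogenes, and their counts are less certain for that.

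Myc acts as a dimer with Max, and the Mxd proteins and Mxi1 compete with it for Max. Of 9 such genes tested in HFD + hIRI against HFD + sham, 0 were called higher and 2 lower, Mxi1 and Mxd4 (against 8.47% of all genes called lower). Every HFD + hIRI library lay above every HFD + sham library for 2 of the 9, Mlx and Mnt (22.2%, against 23.1% of all genes). For 2, Mxi1 and Mxd4, every one lay below (against 23.6% of all genes). Mxi1 was at 76.3, 80.7 and 85.1 CPM in HFD + sham and 59.1, 60.3 and 63.7 CPM in HFD + hIRI, from lowest to highest (log2 fold change -0.40, SE 0.11, adjusted p = 0.0291). Mxd4 was at 51.2, 51.2 and 53.7 CPM against 34.8, 37.3 and 43.8 CPM (log2 fold change -0.43, SE 0.12, adjusted p = 0.0362). Each call ended without HFD + sham replicate 1, 2 or 3 and without HFD + hIRI replicate 1 or 2, while the direction stayed under every alternative. Max itself was at 47.3, 48.3 and 49.0 CPM against 44.1, 46.1 and 53.3 CPM (log2 fold change -0.01, SE 0.13). Of the rest, Mycl had a log2 fold change of -0.73, Mga -0.16 and Mxd1 -0.12, and Mlx had 0.39, Mnt 0.30 and Mycn 0.16, with adjusted p from 0.0565 for Mlx upward. Mycl, a relative of Myc at low level, had its largest difference under ND, at 2.95, 3.11 and 3.19 CPM after sham and 1.27, 1.58 and 1.73 CPM after hIRI (log2 fold change -1.01, SE 0.30, adjusted p = 0.194).

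Of 16 genes of polyamine and nucleotide synthesis, which include known Myc targets, 3 rose (18.8%, against 11.4% of all genes) and 1 fell (against 8.47%), shares not far from those of all genes. Ctps, CTP synthase, was at 25.7, 25.7 and 29.7 CPM in HFD + sham and 57.7, 113 and 117 CPM in HFD + hIRI, from lowest to highest. Its log2 fold change of 1.83 (SE 0.25, adjusted p = 0.0096) was below that of Myc and above that of each of the 42 factors. The call was lost when HFD + sham replicate 2 was left out but not when any other library was. It was also lost with the library number group as a term. Under ND, Ctps was at 28.7, 32.5 and 33.8 CPM after sham and 39.9, 56.8 and 60.0 CPM after hIRI, also with no overlap (log2 fold change 0.72, SE 0.24, adjusted p = 0.234). Gmps, of guanine nucleotide synthesis, rose (0.32, adjusted p = 0.0198) and Pfas, of purine synthesis, fell (-0.59, adjusted p = 0.0356). Of the 12 fits with a library left out, Gmps was called in 9, all but those without HFD + sham replicate 1, 2 or 3, and Pfas in 4. Gmps was also not called when scaled by library totals alone or by the upper quartile. Neither Gmps nor Pfas was called with the library number group as a term or with only the HFD libraries in the fit. The median of the 16 was -0.16.

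Among markers of cell types, the summed level of the adrenal cortex list was higher in every HFD + hIRI library than in any HFD + sham library, and that of the tubule list was lower. The 9 of 12 leukocyte markers in the table summed to 124 to 332 CPM in HFD + sham and 111 to 245 CPM in HFD + hIRI, with 0 called higher and Csf1r called lower. Of 11 proliferation markers Pcna was called higher (log2 fold change 0.54) and Tk1 lower (-1.23), and they summed to 91.4 to 99.5 CPM against 93.3 to 132 CPM. The 12 kidney tubule markers summed to 22626 to 23638 CPM against 17995 to 21065 CPM, with Aqp1 called lower (-0.76). They did not move as one: 8 fold changes were below 0 and 4 above. Slc22a6 was at 991 to 1176 CPM in HFD + sham and higher, at 1305 to 1638 CPM, in HFD + hIRI. The 3 of 7 adrenal cortex markers in the table summed to 5.06 to 6.33 CPM in HFD + sham and 29.2 to 70.2 CPM in HFD + hIRI, with Akr1b7 and Mc2r called higher and Star not. Akr1b7 made up most of that sum, at 25.8 to 64.9 CPM. In ND + hIRI the sum was 5.35, 15.4 and 17.3 CPM in replicates 1 to 3, against 3.38 to 3.56 CPM in ND + sham, in the order that Myc and the factors had there. The steroid synthesis genes Cyp11a1, Cyp11b1, Cyp21a1 and Hsd3b1 of that list were not analysed here. Of 6 adipose and 6 hepatocyte markers 0 were called, and no marker was at 0 in a library of the HFD groups. The part of other cells in the results was not tested.

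Features of the genes that the choice did not use showed these values. Per kilobase of exon, mean levels ran from 3.67 CPM for Rrp12 to 130.4 CPM for Npm1, with Nop10 (83.0), Nhp2 (49.1) and nucleolin (43.9) next, and Myc at 6.70. Of the 21 members longer than 2623 bases 14 were called in HFD + hIRI against HFD + sham (median log2 fold change 0.55), and of the 22 others 8 (0.46). With the trend of level on gene length removed in each library 25 members were called, with 13.2% of all genes called higher and 8.42% lower. For 8 members some exon bases were shared with a gene on the other strand, most of all Tsr1, of whose 3385 exon bases 1159 (34.2%) also belong to Srr, and Bysl, of whose 3854 bases 358 (9.29%) belong to Ccnd3. The strand setting of the counting is unknown here. None of the 8 partners passed the test. Srr and Ccnd3 had log2 fold changes of -0.26 and -0.17, while Tsr1 and Bysl rose. Mpp1, which shares 44 bases (1.57%) with Dkc1 and stood at a mean of 216 CPM, had 0.45, and Rmnd5b, which shares 42 bases (4.18%) with Nhp2, had 0.48, the direction of those members.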

How the data were processed

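Kidney RNA of 12 mice was sequenced as paired-end libraries, 3 per group. Tools named in the processing notes of the submitters are STAR 2.7.10a, Subread 2.0.3 with featureCounts, FastQC 0.11.5 and edgeR 3.42.4, with mm10 as the build. With these the authors made the deposited whole-number counts of reads for each gene (annotation and strand setting not given in the sources used here). Log2 CPM values deposited beside them were not used, nor were the authors' own comparisons from edgeR, given as log2 fold changes, as a score (a signed linear fold) and as deposited p-values with FDR. Gene positions and exon lengths were copied from the deposited table.

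From the counts, levels and tests were computed in R 4.3.3 with edgeR 4.0.16: TMM scaling, filterByExpr (0 of 14091 genes removed), a robust quasi-likelihood fit over all 12 libraries with group as the only term, and Benjamini-Hochberg adjustment over all genes. A call is an adjusted p under 0.05. The standard error (SE) is the log2 fold change over the square root of F. Log2 levels used a prior count of 2. The code was tested on simulated data. Alternatives were other scalings, filters, DESeq2, limma voom, the likelihood ratio test, the replicate number or library number as a term, removal of a trend with gene length, and libraries left out. The members, lists and tests were chosen with earlier results of these data known. Values in all libraries are given for Myc and, for each role, for the member with the highest count per kilobase, the 2 with the smallest p in HFD + hIRI against HFD + sham and the 1 with the smallest p in ND + hIRI against ND + sham. Of each pathway list up to 2 genes per direction with the smallest p are named. Nip7, Rrs1 and other members given by fold change alone were named after their values were seen, as were Utp20, Srr, Ccnd3, Mpp1 and Rmnd5b. Promoter windows are from RefSeq (GRCm38.p6). Replicates of a group differed by more than sampling noise.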

Additional observations from a re-analysis of the deposited data

Results flagged for a closer look

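For 2 genes every HFD + hIRI library moved one way from the HFD + sham mean and every ND + hIRI library the other way from the ND + sham mean. For Dkc1 the HFD + hIRI libraries lay 0.97, 0.37 and 0.42 above on the log2 scale, and the ND + hIRI libraries at -0.04, -0.36 and -0.03. The difference between the diets was 0.75 (SE 0.24, edgeR adjusted p = 0.486, unadjusted p = 0.00857) and did not pass the test. For Imp3 the HFD + hIRI libraries lay at -0.26, -0.22 and -0.01 and the ND + hIRI libraries at 0.13, 0.12 and 0.05, a difference of -0.25 (SE 0.14, adjusted p = 0.532). Several of these moves are smaller than the spread within a group.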

How the results depend on the processing

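No called result changed direction. The median of members in HFD + sham against ND + sham (0.05) was -0.01 without HFD + sham replicate 1. The count of members called in HFD + hIRI against HFD + sham (22) was 6 with only those 6 libraries in the fit (Ltv1, Rrp12, Nolc1, Gnl3, Wdr43 and Ddx21) and 0 to 29 with 1 library left out. It was 0 with the library number group as a term, which splits the libraries into a lower and a higher run of numbers. All 3 HFD + hIRI libraries and HFD + sham replicate 3 fall in the higher run. HFD + sham replicates 1 and 2 fall in the lower run, with ND + sham replicate 1 and ND + hIRI replicate 1. Within a run, only HFD + sham replicate 3 can be set against HFD + hIRI, so run and procedure are poorly separated here. ND + hIRI replicate 1, which lay among the shams, is the only hIRI library in the lower run. In the fit with this term 0.0852% of all genes were called higher and 0.0426% lower, and the log2 fold change of Myc was 1.92. Scaled by library totals alone it was 15, by the upper quartile 17, with limma voom 18 and with DESeq2 27. In ND + hIRI against ND + sham (0) it was 12 without replicate 1 of both hIRI groups (9.19% of all genes called higher). In HFD + hIRI against ND + hIRI (0) it was 5 by the likelihood ratio test, 15 by DESeq2, 3 by limma voom with sample quality weights (Dkc1, Tsr1 and Nop16), 14 at an adjusted p under 0.1 and 0 to 21 with 1 library left out. With both diets averaged (22) it was 11 with the library number group and 14 to 26 with 1 library left out. The median log2 fold change of members in HFD + hIRI against HFD + sham (0.51) was 0.33 with library totals alone, which moved the median of all genes to -0.17, 0.32 without replicate 1 of both hIRI groups and 0.31 to 0.60 with 1 library left out. Leaving out both replicates gave 0.17 in HFD + hIRI against ND + hIRI (0.36, and 0.20 to 0.46 with 1 library left out) and 0.11 for the difference between the diets (0.31). The cause of these moves was not tested.

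Replicate numbers are shared by the groups, and whether they pair the samples was not settled. Correlations of same-numbered libraries ran from -0.42 to 0.21 over 18 pairs and were over 0.1 in 6. The 3 pairs of ND + sham with ND + hIRI were at 0.17, 0.20 and 0.20. Of 36 best matches, each among 3 libraries, 17 were with the own number. With a replicate block 19 members were called in HFD + hIRI against HFD + sham and 1 (Dkc1) in HFD + hIRI against ND + hIRI. With 3 mice a group, exact permutation cannot give a p under 0.1.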
